A study of Danio rerio with 25 samples.

Results

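Cell cycle and DNA replication genes were followed in the epicardium, which covers the zebrafish heart, and in the other heart cells of larvae. The set was given as 42 gene names, of which 41 were found in the RNA count table of 31275 genes. They comprised 18 genes of DNA replication and nucleotide synthesis, 20 genes of mitosis and 3 others, the G1 cyclins *ccnd1* and *ccnd2a* and the histone gene *h2afx*. The name incenp was absent in that spelling. All 41 genes were among the 20745 that passed the filter on low counts.

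A cell that divides first licenses its replication origins, for which ORC, Cdc6 and Cdt1 load the Mcm2-7 helicase and Geminin blocks a further round, and then copies its DNA with the PCNA clamp and with nucleotides made by ribonucleotide reductase and thymidylate synthase. Entry into mitosis follows from Cdk1 bound to A- and B-type cyclins, after which Aurora and Polo-like kinases, kinesins and the spindle checkpoint separate the chromosomes. Transcripts of most of these genes are largely restricted to cycling cells, and the adult zebrafish epicardium is known to proliferate after heart injury, whereas it is largely quiescent in the uninjured heart.

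RNA was measured in 4 groups. Adult cryoinjury libraries (n = 3) came from hearts taken 3 days after a freeze injury of the ventricle, and adult sham libraries (n = 2) from hearts taken 3 days after the operation without it; both carried the reporter tcf21:BirA-mCherry, and nuclei were isolated by pulldown. Larval epicardium (n = 3) and larval non-epicardium (n = 3) were sorted by fluorescence at 5 days post fertilization from hearts with the reporter tcf21:H2B-Dendra2, without treatment. In both reporters tcf21, a transcription factor gene of the epicardium, drives the label. Stage, reporter and purification of cells or nuclei therefore cannot be told apart between adult and larval RNA. The labels do not say that replicates came from separate animals, so p-values measure the spread between these libraries, which may be technical. Accessible chromatin (ATAC-seq) was measured at the same genes in 14 libraries, all of sorted cells, with 2 libraries in each of the other groups and 4 after cryoinjury.

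The RNA libraries held 4635226 to 8371594 counts. The limit of detection used below, 3 counts, lay between 0.309 and 0.717 CPM (TMM-scaled CPM, the unit of every RNA level given here) and covers counting error only, because PCR copies are not independent molecules. Between 23494 and 28961 genes had at least 1 count in larval libraries, against 14588 to 17178 in adult ones. The 5 epicardial marker genes (tcf21, tbx18, *wt1a*, *wt1b* and *aldh1a2*) were detected in every epicardial library and all 5 were called higher in larval epicardium than in larval non-epicardium. Adult libraries held muscle RNA besides, with 4.29 to 5.04% of counts from 18 cardiomyocyte genes after cryoinjury, 5.61 to 7.42% after sham surgery, 0.101 to 0.225% in larval epicardium and 0.622 to 1.79% in larval non-epicardium. In such bulk samples, fewer cells of a type and less RNA per cell cannot be told apart.

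The set was most abundant in larval non-epicardium, and its mitosis genes were least abundant after sham surgery. Summed over the 18 replication genes, the level was 324, 469 and 425 CPM after cryoinjury, 225 and 210.5 CPM after sham surgery, 205, 174 and 295 CPM in larval epicardium and 3217, 4072 and 3365 CPM in larval non-epicardium. Summed over the 20 mitosis genes, it was 394, 460 and 227 CPM after cryoinjury, 138 and 15.03 CPM after sham surgery, 190.4, 176 and 157 CPM in larval epicardium and 2597, 4112 and 3610.1 CPM in larval non-epicardium. The 3 larval non-epicardium libraries lay above all others in both sums, and the 3 cryoinjury libraries lay above both sham libraries. The sham libraries resembled each other in the replication sum but not in the mitosis sum, where sham 12 was the lowest of all 11 libraries. Single replication genes differed between them, with *pcna* at 47.8 CPM in sham 4 and 90.6 CPM in sham 12, and *uhrf1* at 27.7 and 0.635 CPM. Sham 12 lay below sham 4 in 10 of the 18 replication genes and above it in 7. The mitosis sum divided by the replication sum was 1.21, 0.981 and 0.534 after cryoinjury, 0.616 and 0.0714 after sham surgery, 0.931, 1.01 and 0.5303 in larval epicardium and 0.807, 1.01 and 1.07 in larval non-epicardium.

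**Figure D1:**
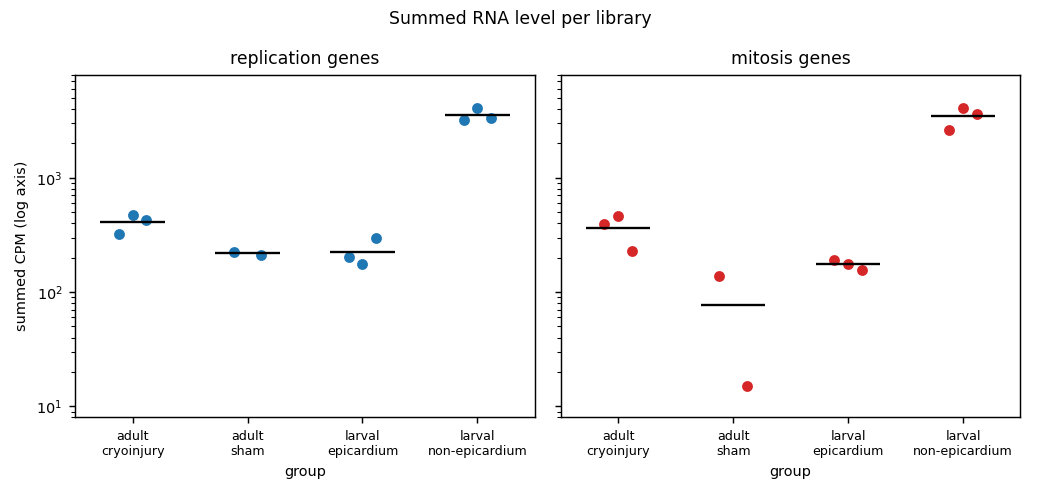
Summed CPM (log axis) of the 18 replication genes and the 20 mitosis genes in each RNA library (points), with the group mean as a line, for 3 cryoinjury, 2 sham, 3 larval epicardium and 3 larval non-epicardium libraries. Larval non-epicardium stands highest in both panels, and the 2 sham libraries lie apart in the mitosis panel, at 138 and 15.03 CPM.

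Per kilobase of gene length, the scale on which genes can be compared, the leading members differed between the groups. After cryoinjury the mean level was highest for *ccnd2a*, a D-type cyclin of early G1, at 145 CPM per kb, followed by *pcna*, the sliding clamp of DNA polymerases, at 61.01, and *h2afx* at 29.8. The same 3 genes led after sham surgery, with 165, 47.8 and 30.7 CPM per kb, and in larval epicardium, with 90.4, 58.2 and 34.1 CPM per kb. In larval non-epicardium *pcna* led with 1167 CPM per kb, ahead of *cdk1*, the mitotic kinase, with 549, and *ccnd2a* stood at 35.01. The transcription factor gene *foxm1*, which drives mitotic genes, was the lowest member per kilobase after cryoinjury, at 0.0318, in larval epicardium, at 0.2605, and in larval non-epicardium, at 0.396, while *foxm1*, *chek1*, *ccnb3* and *bub1* had no count in either sham library.

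**Figure D2:**
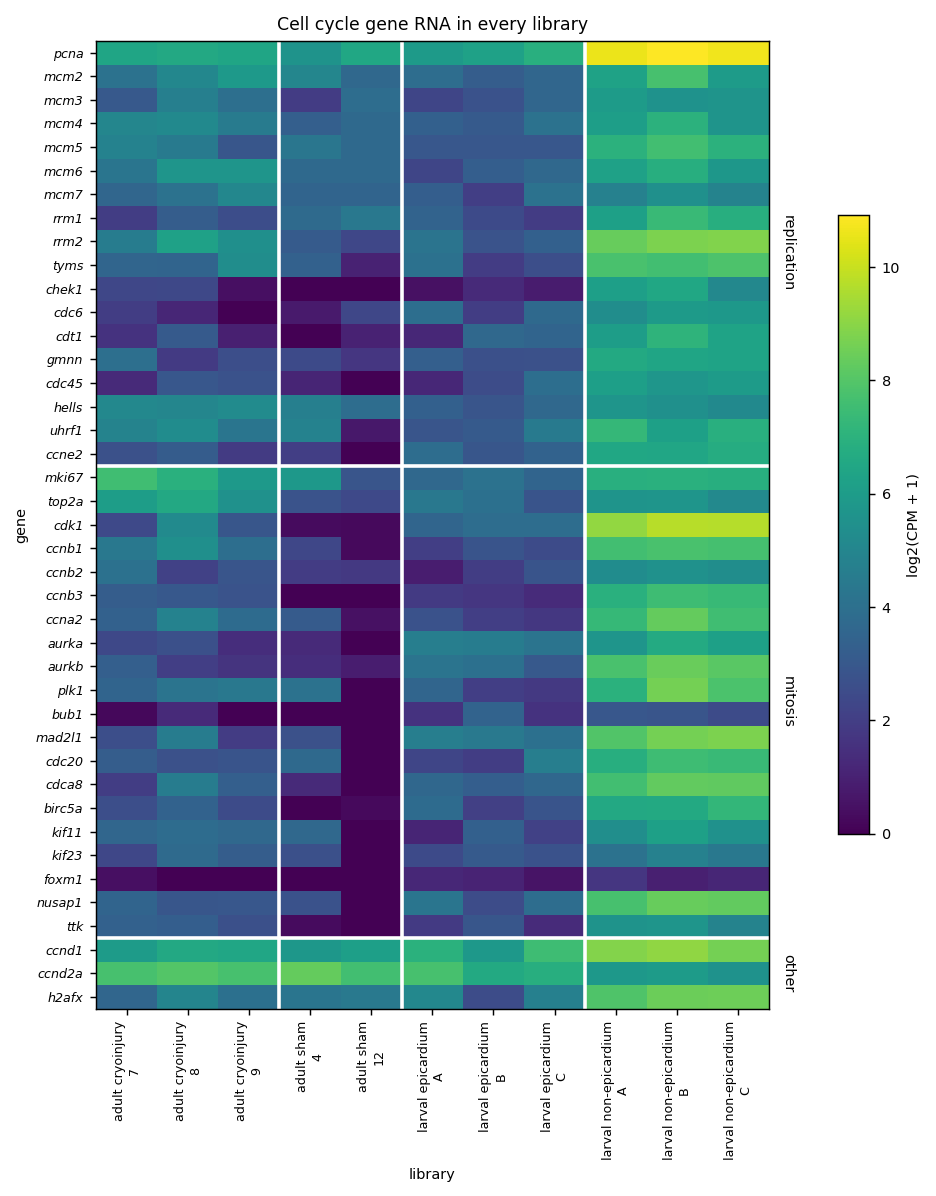
RNA level of each of the 41 genes (rows, in 3 blocks) in each of the 11 libraries (columns), as log2(CPM + 1) in colour. Larval non-epicardium is brightest for most genes, though not for *ccnd2a* in the last block, and the mitosis block is darkest in sham 12.

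Larval epicardium was set against larval non-epicardium, sorted heart cells other than the epicardium, to ask whether the epicardium at this stage differs from its neighbours in cycling genes. Replication genes were lower in larval epicardium: 16 of 18 were called lower and 0 higher (edgeR quasi-likelihood test, Benjamini-Hochberg adjusted p under 0.05 over all genes), where 7.77% of all tested genes were called lower and 5.68% higher. The median log2 fold change was -3.36, against 0.32 over all genes, and none of the 18 lay above 0. In each of the 18 genes all 3 epicardium libraries lay below all 3 non-epicardium libraries, a pattern that 21% of all tested genes shared.

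The clamp gene *pcna* had 59.9, 74.5 and 118 CPM in larval epicardium, against 1523, 1922 and 1624 CPM in larval non-epicardium. The groups lay far apart, by -4.32 ± 0.48 (SE; adjusted p = 5.13e-06) on the log2 scale. The helicase subunit *mcm2* had 13.9, 8.24 and 11.1 CPM in larval epicardium and 76.96, 209.6 and 61.8 CPM in larval non-epicardium, and *mcm5* had 6.76, 6.797 and 6.74 CPM in larval epicardium and 129.5, 191 and 126 CPM in larval non-epicardium. Of these 2, *mcm5* was nearly constant among the epicardium libraries, whereas *mcm2* spread widely in non-epicardium, and their log2 fold changes were -3.39 ± 0.67 (SE; adjusted p = 0.00182) and -4.46 ± 0.63 (SE; adjusted p = 7.44e-05). The other helicase subunits *mcm3*, *mcm4* and *mcm6* were also called lower, with log2 fold changes of -2.94, -2.89 and -3.33. The last subunit, *mcm7*, was not called (-1.80 ± 0.72, SE, adjusted p = 0.107).

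The 3 replication genes with the largest called differences were *chek1*, *rrm2* and *tyms*. The checkpoint kinase gene *chek1* had 0.406, 1.44 and 0.763 CPM in larval epicardium, 1 library being at the floor, and 69.9, 89.4 and 32.8 CPM in larval non-epicardium, which is -6.15 ± 0.97 (SE; adjusted p = 0.000285) on the log2 scale. The small subunit of ribonucleotide reductase, *rrm2*, had 17.3, 5.97 and 9.03 CPM in larval epicardium and 331, 434 and 460.1 CPM in larval non-epicardium (-5.24 ± 0.62, SE, adjusted p = 1.05e-05). Thymidylate synthase, *tyms*, had 15.6, 2.88 and 5.21 CPM in larval epicardium and 215, 193 and 229.9 CPM in larval non-epicardium (-4.76 ± 0.82, SE, adjusted p = 0.000542). In these 3 genes the lowest non-epicardium library stood above the highest epicardium library. The large reductase subunit *rrm1* was lower by a similar measure (-4.33), as were the licensing factor *cdt1* (-3.55), its inhibitor *gmnn* (-3.72), the helicase cofactor *cdc45* (-3.16) and the cyclin *ccne2* of the G1/S transition (-3.23). The maintenance methylation factor *uhrf1* had 6.36, 7.41 and 21.1 CPM in larval epicardium and 153, 73.2 and 116 CPM in larval non-epicardium, without overlap (-3.29 ± 0.85, SE, adjusted p = 0.0129), and the chromatin remodeller *hells* was called lower as well (-2.23). The licensing factor *cdc6* was not called (-2.42 ± 0.91, SE, adjusted p = 0.0881).

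Mitosis genes were lower to a similar extent. Of 20, 15 were called lower and 0 higher, with a median log2 fold change of -3.89. Without overlap between the groups, 18 of 20 lay lower. Among all tested genes, 7.77% were called lower, 5.68% higher and 21% lay lower without overlap, and the median was 0.32. The kinase gene *cdk1* had 10.8, 14.01 and 13.9 CPM in larval epicardium and 561, 859.6 and 829.8 CPM in larval non-epicardium, with a difference of -5.86 ± 0.71 (SE; adjusted p = 1.37e-05) on the log2 scale. Its cyclin partner *ccnb1* had 3.11, 6.18 and 4.58 CPM in larval epicardium and 193, 216 and 206 CPM in larval non-epicardium (-5.46 ± 0.75, SE, adjusted p = 5.96e-05). Both genes thus stood far apart between the groups, with little spread in non-epicardium. The cyclin genes *ccnb3* and *ccna2* had the largest called differences among mitosis genes: *ccnb3* had 2.57, 2.27 and 1.53 CPM in larval epicardium and 120.1, 185 and 164 CPM in larval non-epicardium (-6.19 ± 0.64, SE, adjusted p = 3.47e-06), and *ccna2* had 5.82, 3.09 and 2.42 CPM in larval epicardium and 158, 324 and 187 CPM in larval non-epicardium (-5.88 ± 0.82, SE, adjusted p = 6.81e-05).

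Among the mitotic kinases, *aurkb*, of the chromosomal passenger complex, had 17.4, 15.2 and 7.25 CPM in larval epicardium and 219, 340.2 and 280 CPM in larval non-epicardium (-4.39 ± 0.62, SE, adjusted p = 8.07e-05). The Polo-like kinase gene *plk1* had 10.8, 3.09 and 2.54 CPM in larval epicardium and 123, 396 and 225 CPM in larval non-epicardium (-5.50 ± 1.02, SE, adjusted p = 0.00101). In *plk1* the libraries of each group varied widely among themselves, yet the groups did not overlap. The proliferation marker *mki67*, which coats mitotic chromosomes, had 11.8, 16.2 and 10.6 CPM in larval epicardium and 115, 119.8 and 114 CPM in larval non-epicardium (-3.18 ± 0.67, SE, adjusted p = 0.00289). The passenger complex genes *cdca8* and *birc5a* (-4.67 and -3.89), the checkpoint genes *mad2l1* and *ttk* (-4.16 and -3.56), the anaphase activator *cdc20* (-3.88), the spindle genes *kif11* and *nusap1* (-3.51 and -4.54) and the cyclin gene *ccnb2* (-3.62) were also called lower.

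5 mitosis genes were not called. The DNA topoisomerase gene *top2a* had 19.6, 15.4 and 6.23 CPM in larval epicardium and 49.1, 50.3 and 34.4 CPM in larval non-epicardium, without overlap, at -1.70 ± 0.59 (SE; adjusted p = 0.0610) on the log2 scale. The kinase gene *aurka* averaged 21.5 ± 3.899 CPM in larval epicardium and 73.9 ± 24.9 CPM in larval non-epicardium (SD, n = 3 each; adjusted p = 0.108), and the cytokinesis kinesin *kif23* averaged 5.87 ± 1.48 CPM in larval epicardium and 20.99 ± 5.52 CPM in larval non-epicardium (adjusted p = 0.245). The checkpoint kinase *bub1* and *foxm1* overlapped between the groups, with means of 4.75 and 0.998 CPM in larval epicardium and 5.86 and 1.52 CPM in larval non-epicardium. A capitalised entry, *INCENP*, was left out of the counts because its spelling differed from the member name; this passenger complex scaffold averaged 6.06 ± 3.63 CPM in larval epicardium and 55.8 ± 17.7 CPM in larval non-epicardium (SD, n = 3 each) and was called lower (log2 fold change -3.19 ± 0.73, SE, adjusted p = 0.00574).

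The 2 D-type cyclins went opposite ways. The gene *ccnd2a* had 212, 96.9 and 112 CPM in larval epicardium and 55.3, 61.7 and 45.9 CPM in larval non-epicardium, all 3 epicardium libraries above all 3 of non-epicardium, and was the only one of the 41 called higher (1.37 ± 0.45, SE, adjusted p = 0.0494) and to lie higher without overlap, as 22% of all tested genes did. The gene *ccnd1* had 123, 54.99 and 182 CPM in larval epicardium and 476, 554 and 396 CPM in larval non-epicardium and was called lower (-1.98 ± 0.48, SE, adjusted p = 0.00798). The variant histone gene *h2afx*, whose protein is phosphorylated at DNA breaks, had 33.003, 4.84 and 26.2 CPM in larval epicardium and 236, 349.9 and 361 CPM in larval non-epicardium (-3.89 ± 0.65, SE, adjusted p = 0.000368); reads of similar histone genes may be divided uncertainly between copies. In these 3 genes too the groups did not overlap.

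Further genes of the same pathways were read from 4 lists that shared no gene with the set. Of 46 further replication genes tested, 30 were called lower in larval epicardium and 0 higher. The most abundant of those called were *rfc5*, of the clamp loader, at 27.5 CPM in larval epicardium and 606 CPM in larval non-epicardium, *rpa2*, of the single-strand binding complex, at 25.8 CPM in larval epicardium and 531 CPM in larval non-epicardium, and the flap nuclease *fen1* at 27.5 CPM in larval epicardium and 529 CPM in larval non-epicardium. Of 52 further mitosis genes, 34 were called lower and 0 higher, led by *ube2c*, the ubiquitin-conjugating enzyme of the anaphase-promoting complex, at 34.2 CPM in larval epicardium and 569 CPM in larval non-epicardium. Of 27 regulators of G1, 8 were called lower, among them *cdk2* (-3.80), and 0 higher. These counts stand beside 7.77% of all tested genes called lower and 5.68% called higher.

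Of 25 genes of cell cycle arrest tested, 4 were called higher in larval epicardium and 1 lower, beside 5.68% and 7.77% of all tested genes, with a median log2 fold change of 0.10. The Cdk inhibitor gene *cdkn1ba* averaged 81.8 ± 36.7 CPM in larval epicardium and 21.2 ± 4.91 CPM in larval non-epicardium (SD, n = 3 each) and was called higher (1.95 ± 0.59, SE, adjusted p = 0.0323), as was the related inhibitor *cdkn1cb* (3.28 ± 0.99, SE, adjusted p = 0.0319). The stress-induced growth arrest gene *gadd45ga* was called higher too (2.75). The inhibitor *cdkn1a* (0.23 ± 0.80, SE, adjusted p = 0.873) and the cyclin gene *ccng1* (-0.59 ± 0.46, SE, adjusted p = 0.4296) were not called.

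Markers of other cell types differed between the same groups. In larval non-epicardium 11 erythrocyte genes took 2.501 to 3.21% of counts, against 0.00155 to 0.00678% in larval epicardium, and 9 of the 11 were called lower in larval epicardium. Of 18 cardiomyocyte genes 12 were called lower and 0 higher, of 17 leukocyte genes 7 and 0, and of 15 endothelial genes 5 and 1. The 13 mural cell and fibroblast genes went both ways, with 5 called lower and 3 higher and a median log2 fold change of -0.10. Of all tested genes 7.77% were called lower and 5.68% higher. The 17 leukocyte genes summed to 99.7 to 193 CPM in larval epicardium and 1196 to 2246 CPM in larval non-epicardium. The part of these cells in the result was not tested. The replication and mitosis counts held under each alternative scaling and without any single library, with 12 to 16 replication and 13 to 14 mitosis genes called lower when 1 library was left out.

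The adult cryoinjury libraries were set against the sham libraries to ask which genes respond to the injury. Of the mitosis genes all 20 had a positive log2 fold change with a median of 2.23, against 0.0189 over all genes, and 4 were called higher, *top2a*, *ccnb3*, *cdk1* and *birc5a*. Of all tested genes 0.227% were called higher and 0.0916% lower in this comparison. In 13 of 20 mitosis genes all 3 cryoinjury libraries lay above both sham libraries, as in 12.8% of all tested genes.

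The topoisomerase gene *top2a*, which untangles sister chromatids, had 66.7, 93.6 and 44.9 CPM after cryoinjury and 5.98 and 4.24 CPM after sham surgery, with no overlap, at 3.74 ± 0.76 (SE; adjusted p = 0.0417) on the log2 scale. The kinase gene *cdk1* had 4.38, 36.5 and 6.52 CPM after cryoinjury and 0.239 and 0.212 CPM after sham surgery, where each library held 1 count. One cryoinjury library stood well above the other 2, and all 3 lay above both sham libraries. The ratio of *cdk1* levels was 67.7 (95% interval 18.5 to 562), an interval that covers counting error only, and the fitted log2 fold change was 6.01 ± 1.04 (SE; adjusted p = 0.0238). The cyclin gene *ccnb3* had 8.402, 7.14 and 5.94 CPM after cryoinjury and no count in either sham library, which makes it at least 9.99-fold higher, taking 3 counts in the sham library with the higher floor (adjusted p = 0.0187). The survivin gene *birc5a*, of the passenger complex, had 5.11, 9.79 and 4.602 CPM after cryoinjury and 0 and 0.212 CPM after sham surgery, the last from 1 count, a ratio of 57.1 (95% interval 10.02 to 2278) with an adjusted p of 0.0412.

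The other mitosis genes did not pass the threshold. The cyclin gene *ccnb1* had 19.9, 42.8 and 14.2 CPM after cryoinjury and 4.06 and 0.212 CPM after sham surgery, without overlap (3.59 ± 0.86, SE, adjusted p = 0.0586), and *mki67* had 189, 119 and 57.5 CPM after cryoinjury and 55.9 and 6.35 CPM after sham surgery (1.97 ± 0.74, SE, adjusted p = 0.165). For *mki67* the lowest cryoinjury library was barely above sham 4, while sham 12 was far lower. The kinase gene *aurkb* had 8.77, 3.06 and 2.11 CPM after cryoinjury and 1.67 and 0.847 CPM after sham surgery, without overlap (1.88 ± 0.75, SE, adjusted p = 0.187). The gene *plk1* had 10.4, 17.1 and 19.8 CPM after cryoinjury and 16.3 and 0 CPM after sham surgery and overlapped, since sham 4 lay within the range of the cryoinjury libraries (0.96 ± 0.995, SE, adjusted p = 0.675). The passenger complex gene *cdca8* and the checkpoint kinase gene *ttk* had adjusted p-values of 0.0637 and 0.0532, and the smallest log2 fold change was that of *cdc20* (0.12 ± 1.03).

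These values rest on 2 unlike sham libraries. Of the 41 genes, 0, 1 and 3 had no count in cryoinjury 7, 8 and 9, against 6 in sham 4 and 15 in sham 12; the level of sham 12 was below that of sham 4 in 16 mitosis genes and above it in 1. Over the whole table, 16488 genes had a count in sham 4 and 14588 in sham 12, the fewest of all libraries. The order of the 2 sham libraries over all genes was not tested. Without sham 4, 15 mitosis genes were called higher; without sham 12, 3 were (*birc5a*, *ccnb3* and *cdk1*), and without cryoinjury 8, 2 were (*ccnb3* and *cdk1*). A fit of the adult libraries alone called 0 of the 18 mitosis genes it tested and 0 of all 14178 genes (edgeR; 8 mitosis genes and 1744 of all genes had an unadjusted p under 0.05), and DESeq2 called 7 mitosis genes. For DESeq2 and the fits without a library, calls over all genes are not given here. Those counts therefore cannot be set against a background.

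No replication gene passed the test. None of the 18 was called in either direction by edgeR, although 8 had an unadjusted p under 0.05 and DESeq2 called 2 (*rrm2* and *chek1*). An unadjusted p under 0.05 by edgeR was reached by 3879 of all 20745 tested genes. Of the 18, 16 had a positive log2 fold change, as had 50.5% of all tested genes. The median was 1.07, against 0.0189 over all genes. Without overlap, 8 of the 18 lay higher, as did 12.8% of all tested genes. The reductase gene *rrm2* had 22.6, 73.8 and 41.8 CPM after cryoinjury and 7.89 and 4.02 CPM after sham surgery, with no overlap and the smallest p of the replication genes (2.95 ± 0.67, SE, adjusted p = 0.0543). Its partner subunit *rrm1* had a negative log2 fold change, with 2.92, 8.36 and 4.99 CPM after cryoinjury and 12.7 and 19.5 CPM after sham surgery, also without overlap (-1.57 ± 0.69, SE, adjusted p = 0.227), the only gene of the 41 to lie lower without overlap, as did 10.1% of all tested genes. The synthase gene *tyms* had 10.8, 10.4 and 40.3 CPM after cryoinjury and 9.56 and 1.06 CPM after sham surgery (1.95 ± 0.87, SE, adjusted p = 0.235).

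The clamp gene *pcna* had 84.4, 96.1 and 84.4 CPM after cryoinjury and 47.8 and 90.6 CPM after sham surgery, and sham 12 lay within the cryoinjury range (0.35 ± 0.47, SE, adjusted p = 0.777). The helicase genes *mcm2* and *mcm5* overlapped as well: *mcm2* had 16.1, 32.02 and 57.9 CPM after cryoinjury and 31.3 and 11.9 CPM after sham surgery (0.71 ± 0.70, SE, adjusted p = 0.656), and *mcm5* had 27.8, 21.01 and 6.52 CPM after cryoinjury and 18.4 and 12.3 CPM after sham surgery (0.27 ± 0.62, SE, adjusted p = 0.924). For *uhrf1*, 28.9, 38.6 and 17.6 CPM after cryoinjury stood against 27.7 and 0.635 CPM after sham surgery, where sham 4 lay within the cryoinjury range and sham 12 far below it (1.002 ± 0.91, SE, adjusted p = 0.611). The kinase gene *chek1* had no count in either sham library and 4.02, 4.08 and 0.384 CPM after cryoinjury, at least 3.94-fold higher against 3 counts (adjusted p = 0.0749). The G1 cyclins did not pass the test either: *ccnd1* had 62.7, 94.2 and 86.7 CPM after cryoinjury and 53.3 and 69.9 CPM after sham surgery (0.40 ± 0.52, SE, adjusted p = 0.767), and *ccnd2a* had 209, 254 and 210.2 CPM after cryoinjury and 319 and 193 CPM after sham surgery (-0.19 ± 0.49, SE, adjusted p = 0.945). Both overlapped between the groups, and so did *h2afx* (-0.0483 ± 0.65).

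In the wider pathway lists, 2 of 52 further mitosis genes were called higher after cryoinjury and 0 lower. A positive log2 fold change was found for 47 (median 2.54, and 1.96 with genes at 0 set to their bound). Among all tested genes, 0.227% were called higher, 0.0916% lower and 50.5% had a positive log2 fold change, with a median of 0.0189. The called genes were *ube2c*, with 24.8, 6.94 and 5.56 CPM after cryoinjury and no count in either sham library, at least 17.4-fold higher, and *haus1*, of the augmin complex of the spindle, with 6.21, 14.1 and 20.5 CPM after cryoinjury and 0.239 and 0 CPM after sham surgery, a ratio of 120 (95% interval 21.3 to 4760.1) from 1 sham count. The entry *INCENP* was not called (log2 fold change 2.15 ± 0.82, SE, adjusted p = 0.1699), with means of 122 CPM in the cryoinjury libraries and 27.6 CPM in the sham libraries. Of 46 further replication genes none was called and 37 had a positive log2 fold change. An unadjusted p under 0.05 was found for 18 of them and for 3879 of all 20745 tested genes. Among 25 arrest genes none was called, none had an unadjusted p under 0.05, and *cdkn1a*, *cdkn1ba* and *ccng1* had log2 fold changes of 1.03, -0.47 and -0.90.

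Summed levels of some markers of other cells stood apart between the adult groups, but no single marker gene was called. Of all 20745 tested genes, 3879 had an unadjusted p under 0.05 by edgeR in this comparison. The 17 leukocyte genes summed to 870 to 1490.3 CPM after cryoinjury and 544 to 713 CPM after sham surgery. Of the 17, 15 had a positive log2 fold change, 10 lay higher without overlap and none was called (3 at an unadjusted p under 0.05). Among all tested genes, 50.5% had a positive log2 fold change, 12.8% lay higher without overlap and 10.1% lower. The neutrophil gene *lyz* was at 0 in both sham libraries and in 1 of 3 cryoinjury libraries. The 18 cardiomyocyte genes summed to 40562 to 47209 CPM after cryoinjury and 55752 to 110157 CPM after sham surgery, with 3 of 18 positive and none called (4 at an unadjusted p under 0.05). The 13 mural cell and fibroblast genes summed to 10278 to 17373 CPM after cryoinjury and 6822 to 7128 CPM after sham surgery, with 6 of 13 positive. Of 15 endothelial genes 3 were positive and 12 negative, and of 11 erythrocyte genes 0 were positive and 7 negative. No gene of these further lists was called. The part of all these cells in the differences of cell cycle genes was not tested.

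**Figure D3:**
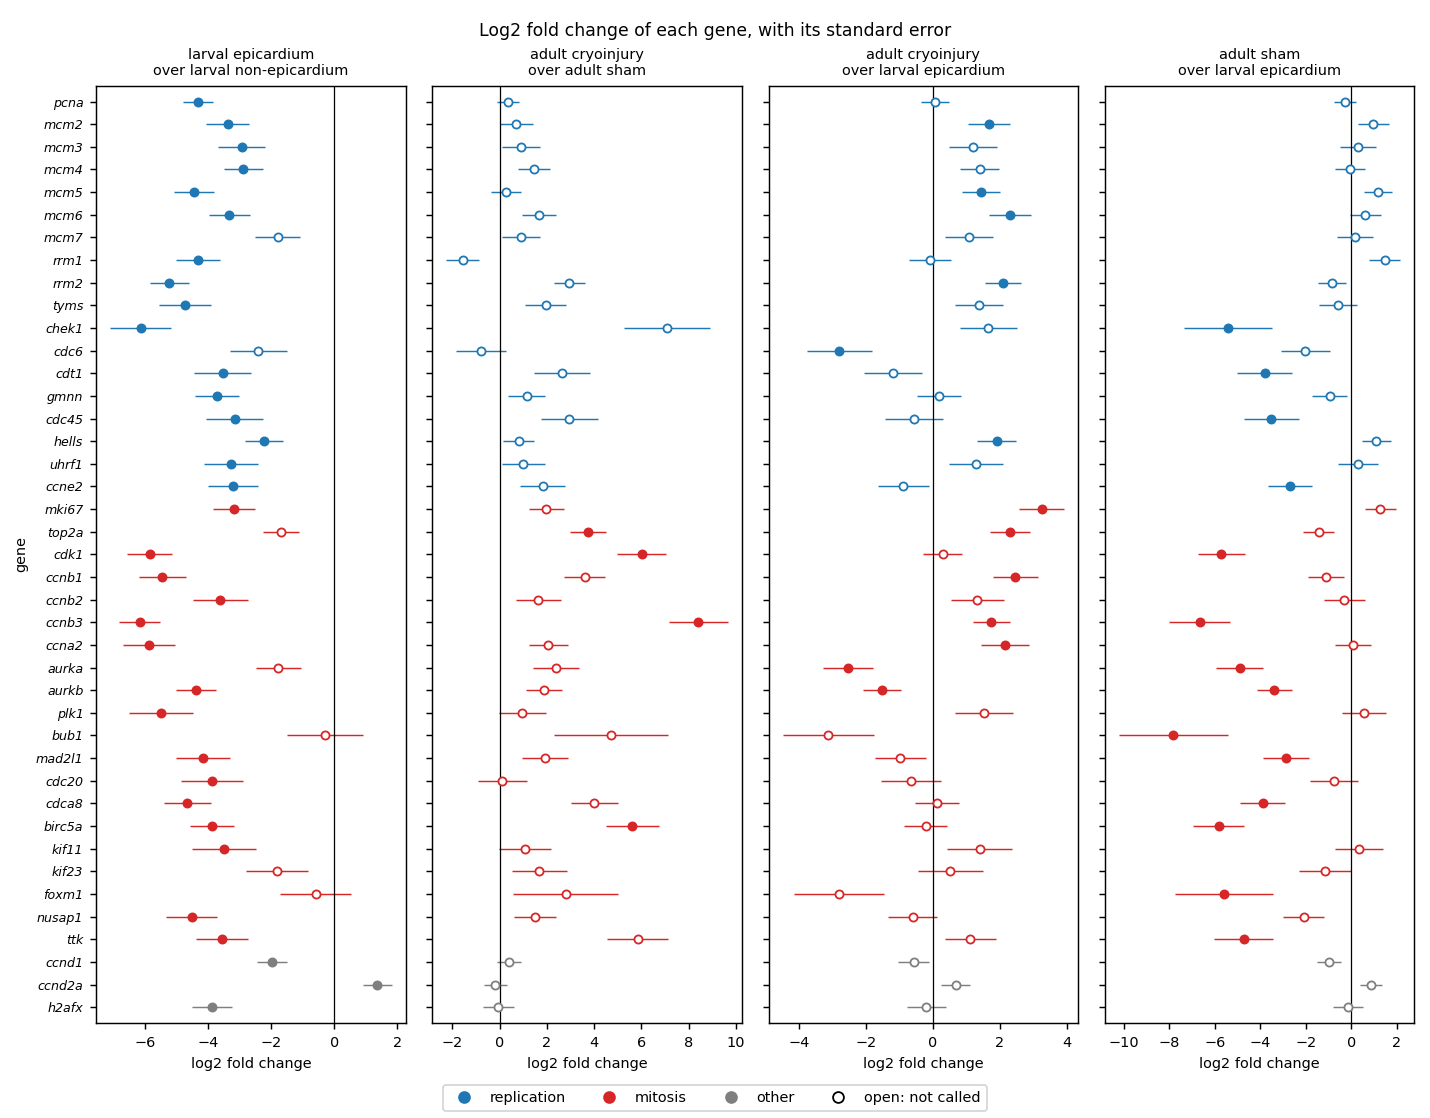
Log2 fold change (points) with its standard error (bars) of each of the 41 genes in the 4 RNA comparisons; filled points passed an adjusted p under 0.05. Replication and mitosis genes lie left of 0 in the larval panel, all 20 mitosis genes lie right of 0 for cryoinjury over sham, and both directions occur among genes in the adult over larval panels.

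The adult cryoinjury libraries were then compared with those of larval epicardium. Of 18 replication genes, 5 were called higher after cryoinjury than in larval epicardium (*mcm2*, *mcm5*, *mcm6*, *rrm2* and *hells*) and 1 lower (*cdc6*); of 20 mitosis genes, 5 were called higher (*mki67*, *top2a*, *ccnb1*, *ccna2* and *ccnb3*) and 2 lower (*aurka* and *aurkb*). Of all tested genes 12.1% were called higher and 26% lower. The entry *INCENP*, outside these counts, was called higher after cryoinjury (log2 fold change 4.32 ± 0.77, SE, adjusted p = 0.000372 by edgeR). Over all 41 genes, 11 lay higher and 4 lower without overlap, against 18% and 32.6% of all tested genes. The medians were 1.25 for replication and 0.40 for mitosis, against -0.59 over all genes. That last median moved with the scaling, to -0.96 with DESeq2 size factors, under which the mitosis median was -0.02. Relative to all genes the replication median stood 1.84 higher and the mitosis median 0.999 higher; the offsets were 0.92 and 0.58 with the trend on abundance removed and 2.82 and 1.997 with no filter on low counts, so their size depends on these settings.

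Among the 41 genes, the largest called difference was that of *mki67*, with 189, 119 and 57.5 CPM after cryoinjury and 11.8, 16.2 and 10.6 CPM in larval epicardium (3.25 ± 0.67, SE, adjusted p = 0.00137). The gene *top2a* had 66.7, 93.6 and 44.9 CPM after cryoinjury and 19.6, 15.4 and 6.23 CPM in larval epicardium (2.31 ± 0.60, SE, adjusted p = 0.00592), and *ccnb1* had 19.9, 42.8 and 14.2 CPM after cryoinjury and 3.11, 6.18 and 4.58 CPM in larval epicardium (2.46 ± 0.67, SE, adjusted p = 0.00746). In these 3 genes the groups did not overlap. Among replication genes, *mcm6* had 17.9, 50.2 and 50.05 CPM after cryoinjury and 3.79, 8.44 and 11.8 CPM in larval epicardium (2.29 ± 0.62, SE, adjusted p = 0.00767). The reductase gene *rrm2* had 22.6, 73.8 and 41.8 CPM after cryoinjury and 17.3, 5.97 and 9.03 CPM in larval epicardium (2.10 ± 0.54, SE, adjusted p = 0.00585), and *hells* had 33.4, 31.2 and 37.8 CPM after cryoinjury and 9.06, 6.39 and 11.9 CPM in larval epicardium (1.90 ± 0.59, SE, adjusted p = 0.0152). These 3 did not overlap either, and they were called under each scaling tried, whereas *mcm2* (1.67 ± 0.63, SE, adjusted p = 0.0428) and *mcm5* (1.44 ± 0.56, SE, adjusted p = 0.0489) lost their call under 3 other scalings (size factors of DESeq2, library totals, and removal of a trend on abundance). The replication count of 5 was 3 without larval epicardium B or without cryoinjury 8, and the mitosis count of 5 was 3 without larval epicardium C.

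The opposite direction was seen for the 2 Aurora kinases and *cdc6*. The gene *aurka* had 4.201, 5.303 and 1.73 CPM after cryoinjury and 24.6, 22.9 and 17.2 CPM in larval epicardium, without overlap (-2.52 ± 0.75, SE, adjusted p = 0.0123), and *aurkb* had 8.77, 3.06 and 2.11 CPM after cryoinjury and 17.4, 15.2 and 7.25 CPM in larval epicardium, with overlap (-1.51 ± 0.57, SE, adjusted p = 0.0438). The licensing gene *cdc6* had 2.92, 1.22 and 0 CPM after cryoinjury and 14.2, 2.99 and 12.1 CPM in larval epicardium (-2.79 ± 0.97, SE, adjusted p = 0.0285), and its call was lost without larval epicardium A or C and without cryoinjury 8 or 9. The count of 2 mitosis genes called lower was 1 without larval epicardium A or B and without cryoinjury 9. Of the cell cycle genes that differed most between cryoinjury and sham surgery, *cdk1* (0.29 ± 0.59) and *birc5a* (-0.21 ± 0.63) overlapped between cryoinjury and larval epicardium, as did *pcna* (0.0668 ± 0.42), *ccnd1* (-0.57 ± 0.46) and *ccnd2a* (0.68 ± 0.44). Each of the other RNA comparisons shares the cryoinjury or the larval epicardium libraries with this one, so their values are not independent.

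With both sham libraries in the fit, mitosis genes were mostly lower after sham surgery than in larval epicardium, but the number called depended on sham 12. Of 20, 10 were called lower and 0 higher, and of 18 replication genes 4 were called lower (*chek1*, *cdt1*, *cdc45* and *ccne2*) and 0 higher, where 25.6% of all genes were called lower and 11.5% higher. The entry *INCENP*, outside these counts, was called higher after sham surgery, with overlap (log2 fold change 2.18 ± 0.76, SE, adjusted p = 0.0321 by edgeR). The medians were -2.49 for mitosis and -0.17 for replication genes, against -0.92 over all genes; with genes at 0 set to their bound, the mitosis median was -1.50. Relative to all genes the mitosis median stood at -1.57, at -2.47 with the trend on abundance removed and at -0.32 with no filter, and the replication median at 0.75, -0.0560 and 2.03 under the same settings. In the fit with both sham libraries, the share of mitosis genes called lower was above that of all genes, and the share of replication genes was near it. The mitosis share depended on sham 12, as given below. The summed mitosis level was 138 CPM in sham 4 and 15.03 CPM in sham 12, against 157 to 190.4 CPM in larval epicardium. The gene *cdk1* had 0.239 and 0.212 CPM after sham surgery and 10.8, 14.01 and 13.9 CPM in larval epicardium, a ratio of 0.0173 (95% interval 0.00208 to 0.0628) with an adjusted p of 0.000536. Both *ccnb3* and *bub1* had no count in either sham library, against 2.57, 2.27 and 1.53 CPM of *ccnb3* and 2.03, 10.2 and 2.03 CPM of *bub1* in larval epicardium. By their larval means they were at least 2.96-fold and 6.63-fold lower after sham surgery. The bound of *bub1* rests mostly on the larval library at 10.2 CPM. The gene *birc5a* had 0 and 0.212 CPM after sham surgery and 13.3, 3.19 and 6.23 CPM in larval epicardium, a ratio of 0.0158 (95% interval 0.000397 to 0.0889).

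The Aurora kinase genes were lower after sham surgery too, *aurka* with 1.43 and 0 CPM after sham surgery and 24.6, 22.9 and 17.2 CPM in larval epicardium (-4.91 ± 1.05, SE, adjusted p = 0.00207), and *aurkb* with 1.67 and 0.847 CPM after sham surgery and 17.4, 15.2 and 7.25 CPM in larval epicardium (-3.39 ± 0.77, SE, adjusted p = 0.00336). Of the replication genes, *cdt1* had 0 and 1.06 CPM after sham surgery and 1.35, 12.05 and 10.4 CPM in larval epicardium (-3.81 ± 1.21, SE, adjusted p = 0.0227), and *cdc45* had 1.195 and 0 CPM after sham surgery and 1.35, 4.84 and 14.4 CPM in larval epicardium (-3.52 ± 1.21, SE, adjusted p = 0.0310). All 4 lay lower without overlap, as did 16 of the 41 genes, while 4 lay higher, against 41.6% lower and 18.1% higher of all tested genes. The kinase gene *chek1*, at 0 after sham surgery, was at least 1.21-fold lower. The mitosis count of 10 was 5 without sham 12, and the replication count of 4 was 2 without larval epicardium B and 1 without larval epicardium C or sham 12. The genes *pcna* (-0.28 ± 0.47), *mcm2* (0.96 ± 0.68), *uhrf1* (0.28 ± 0.88), *plk1* (0.56 ± 0.97) and *mki67* (1.28 ± 0.68) were not called. Without sham 4 the direction turned for *plk1* (-8.04, adjusted p = 0.00978 by edgeR) and *uhrf1* (-4.09, adjusted p = 0.0204), and both were then called lower.

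Of the 46 further replication genes, 7 were called higher after cryoinjury than in larval epicardium and 2 lower, beside 12.1% and 26% of all tested genes. After sham surgery 2 were called higher and 16 lower, beside 11.5% and 25.6% of all tested genes. The histone chaperone gene *chaf1a* had 394, 273 and 245 CPM after cryoinjury and 16.1, 10.4 and 22.5 CPM in larval epicardium (4.22 ± 0.52, SE, adjusted p = 8.16e-06), and after sham surgery it had 93.5 and 62.04 CPM (2.25 ± 0.51, SE, adjusted p = 0.00322 over larval epicardium). DNA ligase *lig1* was called higher after cryoinjury (3.51 ± 0.51, SE, adjusted p = 5.44e-05). Of 52 further mitosis genes 10 were called higher and 6 lower after cryoinjury, among them the centromere protein gene *cenpf* (3.54 ± 0.83, SE, adjusted p = 0.00341) and the Cdk subunit gene *cks1b* (-2.38 ± 0.76, SE, adjusted p = 0.0183), while 1 was called higher and 19 lower after sham surgery. Of 27 G1 regulators 7 were called lower after cryoinjury, a share like that of all tested genes, and 10 after sham surgery, including the growth regulators *mycb* (-2.92 after cryoinjury and -4.35 after sham surgery) and *mych* (-4.24 after cryoinjury and -4.20 after sham surgery).

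Of 25 arrest genes, 16 were called lower after cryoinjury and 13 after sham surgery than in larval epicardium, and none higher in either, where 26% of all tested genes were called lower after cryoinjury and 25.6% after sham surgery. The other arrest genes were not called. The Cdk inhibitor gene *cdkn1a* had 0.183, 8.36 and 3.84 CPM after cryoinjury, 4.06 and 0 CPM after sham surgery and 254, 173 and 164 CPM in larval epicardium (log2 fold change -5.58 ± 0.99 for cryoinjury, SE, adjusted p = 0.000361, and -6.61 ± 1.27 for sham surgery, SE, adjusted p = 0.000870). The stress-response gene *gadd45ba* had 43.3, 44.7 and 104 CPM after cryoinjury, 28.2 and 46.6 CPM after sham surgery and 3868, 1894 and 4173 CPM in larval epicardium, and the antiproliferative gene *btg2* had 12.6, 29.8 and 28.2 CPM after cryoinjury, 6.69 and 34.3 CPM after sham surgery and 1406, 788 and 1585 CPM in larval epicardium. All 3 were called lower in both adult groups. The adult RNA came from nuclei and the larval RNA from sorted cells. Of 5 epicardial marker genes, 2 were called lower and 0 higher after cryoinjury, and 2 and 0 after sham surgery. Of 18 cardiomyocyte genes 18 were called higher after cryoinjury and 17 after sham surgery than in larval epicardium, and of 17 leukocyte genes 13 and 11, with 0 and 2 lower. Of 13 mural cell and fibroblast genes 11 were called higher and 1 lower after cryoinjury, and 9 and 0 after sham surgery. Of 15 endothelial genes 9 were called higher and 1 lower after cryoinjury, and 10 and 0 after sham surgery. Of 11 erythrocyte genes 5 were called higher and 3 lower after cryoinjury, and 6 and 3 after sham surgery. Of all tested genes 12.1% were called higher after cryoinjury and 11.5% after sham surgery. The part of these cells in the differences was not tested.

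The size of the differences varied with the length of the gene. Over the 41 genes, Spearman's rho between length and log2 fold change was 0.50 for larval epicardium over non-epicardium and -0.0605 for cryoinjury over sham surgery. Over the replication and mitosis genes of the set with both their pathway lists (n = 136, without *ccnd1*, *ccnd2a* and *h2afx*) it was 0.57 and -0.13. Genes share libraries and are not independent, so no p is given. Over all 20745 tested genes rho was 0.23 in the larval comparison. In larval epicardium, the median log2 fold change was -3.06 for the 18 genes over 2500 bases, of which 13 were called lower, and -4.16 for the 23 shorter ones, of which 20 were called lower. All tested genes differed by length in the same direction. Their median was 0.74 for 9537 longer genes, with 413 called lower, and -0.19 for 11208 shorter ones, with 1198 called lower. Of the longer genes, *mcm7*, *top2a*, *kif23*, *bub1* and *foxm1* were not called, and neither were *cdc6* and *aurka* of the shorter ones. The shorter genes *cdk1*, *ccna2*, *ccnb3* and *chek1* lay furthest below 0. Against larval epicardium rho over the 136 genes was 0.44 after cryoinjury and 0.45 after sham surgery. Over all tested genes it was 0.21 and 0.19. The part of length in these differences was not tested.

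**Figure D4:**
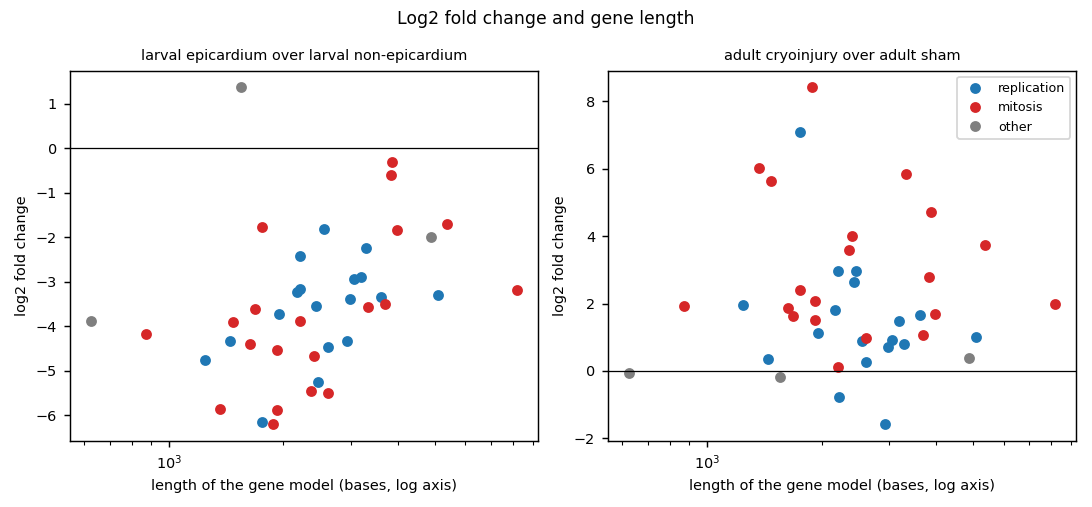
Log2 fold change of each of the 41 genes (points) against the length of its gene model in bases (log axis), for larval epicardium over non-epicardium and for cryoinjury over sham surgery. Points climb with length in the larval panel and show no such slope in the adult panel.

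Accessibility was read at 40 peaks that the deposited annotation places at the promoters of 36 of the 41 genes. They were counted in 2 larval epicardium and 2 larval non-epicardium libraries of the tcf21 reporter, in 2 and 2 libraries of the reporter tbx18:myr-Citrine, which marks the epicardium through another transcription factor gene, and in 4 cryoinjury and 2 sham libraries of adult tcf21 cells. ATAC libraries held 755606 to 6248597 counts in peaks, and the lowest count was 1 in each, so that a 1 stands for 1 read or none. With the tcf21 reporter, 15 of the 40 peaks were called lower in larval epicardium and 0 higher, where 10.1% of all 12756 tested promoter peaks were called lower and 2.53% higher. For the 40 peaks the log2 fold change had a median of -1.25, against -0.50 for all promoter peaks. Of the 15 peaks called lower, 3 belonged to replication genes, 11 to mitosis genes and 1 to *h2afx*.

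The promoter of *rrm2* (chr20:29595179-29595679, GRCz10) had 6.71 and 1.502 CPM in larval epicardium and 33.9 and 25.7 CPM in larval non-epicardium with the tcf21 reporter (-2.76 ± 0.63, SE, adjusted p = 0.00202). That of *cdt1* (chr7:55216874-55217374) had 12.3 and 9.01 CPM in larval epicardium and 57.9 and 38.5 CPM in larval non-epicardium (-2.17 ± 0.50, SE, adjusted p = 0.00240). For both the libraries did not overlap, and *rrm2* held the lowest possible count in 1 epicardium library. Among mitosis genes, the promoter of *ttk* (chr16:5243282-5243782) had 12.3 and 6.01 CPM in larval epicardium and 61.4 and 23.3 CPM in larval non-epicardium (-2.21 ± 0.57, SE, adjusted p = 0.00624). That of *cdk1* (chr17:20903155-20904008) had 22.4 and 7.51 CPM in larval epicardium and 61.9 and 43.2 CPM in larval non-epicardium (-1.77 ± 0.47, SE, adjusted p = 0.00784), and that of *mki67* (chr12:10343267-10343767) had 16.8 and 25.5 CPM in larval epicardium and 92.8 and 43.2 CPM in larval non-epicardium (-1.73 ± 0.44, SE, adjusted p = 0.00588). These 3 did not overlap either. The promoters of *pcna* (-1.04 ± 0.46, SE, adjusted p = 0.1302) and *mcm2* (-0.82 ± 0.54, SE, adjusted p = 0.339) were not called.

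Both assays were set side by side for the 36 genes. Of the 15 genes with a promoter peak called lower, 11 were also called lower in RNA, and of the 21 with no such peak 17 were. The genes *cdc6*, *top2a*, *bub1* and *kif23* were called lower at the promoter and not in RNA. The number of promoter peaks called lower was 2 without tcf21 non-epicardium 1, 7 without tcf21 epicardium 1 and 5 without tcf21 epicardium 2.

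With the tbx18 reporter fewer of the peaks passed the test. All 40 log2 fold changes were negative with a median of -0.60, against -0.34 for all promoter peaks, but 1 peak was called lower, 1 of 2 at *kif23* (chr18:20455307-20455807), where 6.62% of all promoter peaks were called lower and 3.57% higher. A fit of the tbx18 libraries alone called 7, and its calls over all promoter peaks are not given here. The *cdk1* promoter had 36.6 and 33.9 CPM in tbx18 larval epicardium and 44.2 and 60.1 CPM in tbx18 larval non-epicardium (-0.55 ± 0.39, SE, adjusted p = 0.305), and the *rrm2* promoter 17.9 and 9.75 CPM in tbx18 larval epicardium and 31.1 and 31.1 CPM in tbx18 larval non-epicardium (-1.13 ± 0.45, SE, adjusted p = 0.0578). The test of the difference between both reporters, as an interaction term of the same edgeR fit, called 0 of the 40 peaks higher and 0 lower, with 10 at an unadjusted p under 0.05, against 0.572% and 0.18% of all promoter peaks; a difference between the reporters was thus not shown.

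At promoters no difference between the adult groups passed the test. None of the 40 peaks was called in either direction between cryoinjury and sham surgery by edgeR (2 had an unadjusted p under 0.05), and 0% of all promoter peaks were called higher and 0.00784% lower. Over the 40 peaks the log2 fold change had a median of -0.28, against -0.11 for all promoter peaks, and 6 of 40 were positive. The *cdk1* promoter had 34.4, 42.3, 39.1 and 25.1 CPM after cryoinjury and 39.9 and 47.8 CPM after sham surgery (-0.32 ± 0.34, SE, adjusted p = 0.918), and the *top2a* promoter (chr12:10668147-10668647) had 28.2, 37.9, 39.4 and 29.8 CPM after cryoinjury and 42.99 and 41.3 CPM after sham surgery (-0.31 ± 0.32, SE, adjusted p = 0.915). The smallest p was that of 1 of 3 *ccnd1* peaks (chr7:54407492-54407992), with 18.5, 23.99, 22.04 and 13.8 CPM after cryoinjury and 28.7 and 62.3 CPM after sham surgery (-1.19 ± 0.35, SE, adjusted p = 0.539). There the groups did not overlap.

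Against tcf21 larval epicardium, 1 peak was called higher after cryoinjury (*mad2l1*) and 1 lower (*ccnd1*), where 5.38% of all promoter peaks were called higher and 5.01% lower. After sham surgery 4 were called higher (*rrm1*, *cdk1*, *mad2l1* and *kif11*) and 0 lower, where 3.63% and 1.86% of all promoter peaks were. The promoter of *mad2l1*, a spindle checkpoint gene (chr7:57335105-57335605), had 19.4, 15.3, 24.04 and 16.3 CPM after cryoinjury, 25.6 and 14.5 CPM after sham surgery and 2.24 and 3.004 CPM in tcf21 larval epicardium (log2 fold change 2.84 ± 0.69 for cryoinjury, SE, adjusted p = 0.00366, and 2.97 ± 0.73 for sham surgery, SE, adjusted p = 0.00801). The same *ccnd1* peak had 58.1 and 108 CPM in tcf21 larval epicardium, above all 4 cryoinjury libraries (-2.08 ± 0.35, SE, adjusted p = 3.49e-05). Stage and reporter construct cannot be told apart in these comparisons. Without any 1 of the 4 sham or larval libraries, 0 or 1 peak was called higher after sham surgery.

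**Figure D5:**
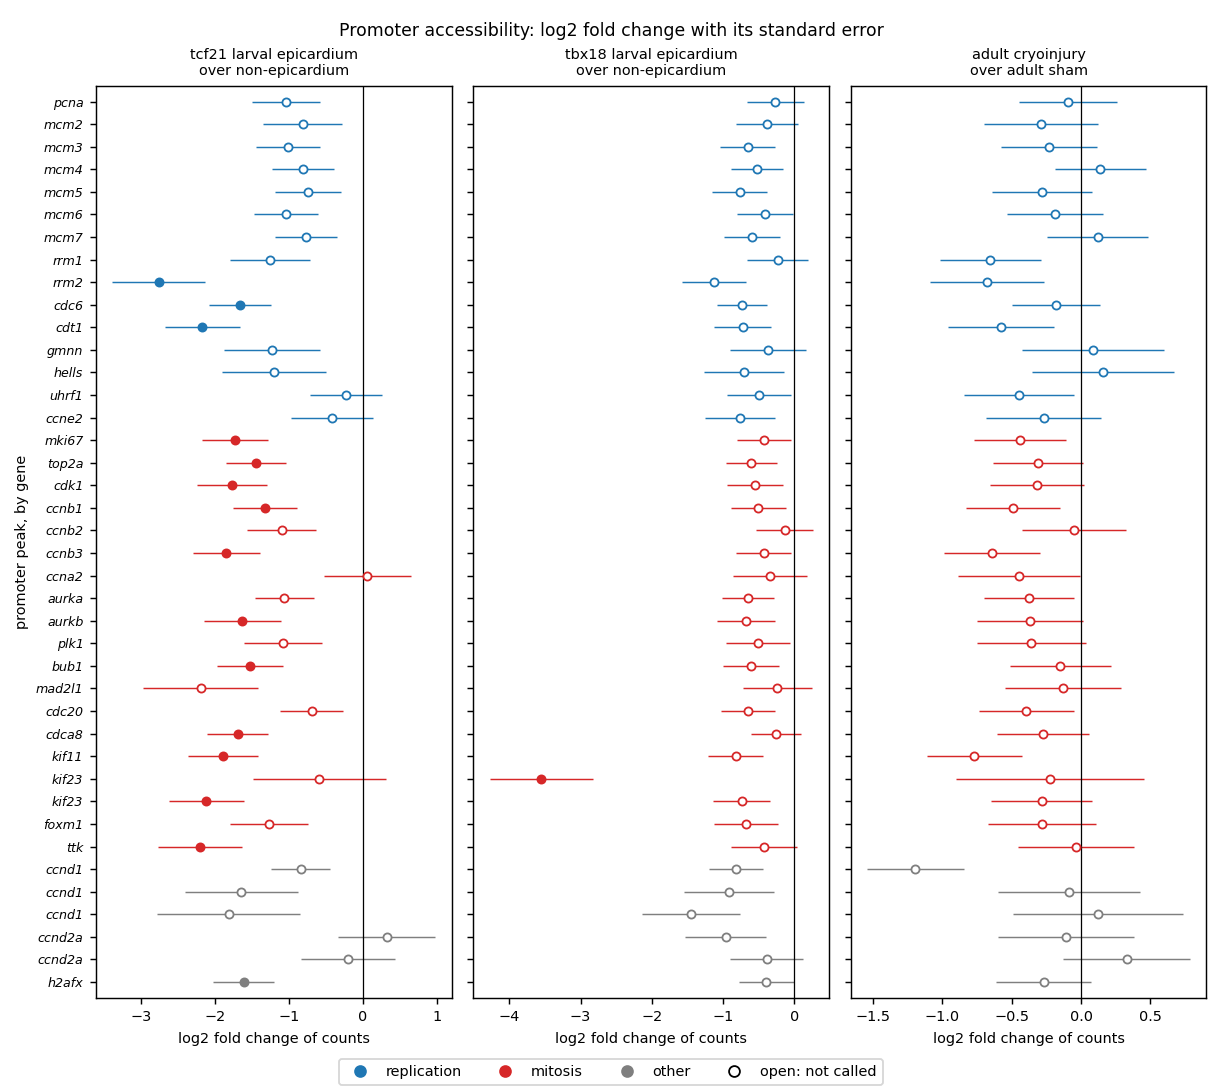
Log2 fold change (points) with its standard error (bars) of ATAC counts at the 40 promoter peaks, for larval epicardium over non-epicardium with each reporter and for adult cryoinjury over sham surgery; filled points passed an adjusted p under 0.05. The tcf21 panel holds 15 filled points, the tbx18 panel 1 and the adult panel none.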

How the data were processed

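RNA was measured in 11 libraries and accessible chromatin in 14. Per the labels' protocols, RNA libraries were made with the SMART-Seq v4 and Nextera XT kits from polyadenylated RNA. The authors deposited raw counts of reads per gene and, for ATAC-seq, raw counts per peak with an annotation of each peak; the submitters' processing notes name GRCz10, STAR 2.7.3a, featureCounts and edgeR 3.32.1, and Bowtie 1.2.3, SAMtools 1.10, MACS2 2.2.7.1, HOMER and DiffBind 3.0.13, without their settings. The use of strand in counting is not given in the sources used here, so reads of overlapping antisense genes cannot be told apart. Larval RNA columns carry numbers that differ from the sample titles, so they were assigned to their group only and are called A, B and C.

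Differences were tested in edgeR 4.0.16 (R 4.3.3) by quasi-likelihood F tests on the counts, with TMM scaling, 1 fit over all libraries of an assay, genes kept at a minimum count of 10 and a total of 15, and Benjamini-Hochberg adjustment over all genes or peaks tested, with a threshold of 0.05. CPM values are computed with TMM-scaled library sizes, and standard errors follow from the F statistic. The fits were checked on simulated data. Ratios from 1 to 3 counts carry 95% exact intervals for counting error only. Replicates differed by more than sampling noise in every group. Levels per kilobase use the gene length given in the deposited count table. Alternatives were DESeq2 size factors, total count, removal of a trend on abundance, DESeq2 1.42.0, no filter, only the compared groups, each library left out, a replicate block for ATAC-seq and larval RNA, and for ATAC-seq halved counts. Figures were drawn with matplotlib 3.10.9.

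The members, classes, pathway lists and marker lists were chosen with earlier results of these data known. Values in every library are given for 14 members set by name and for up to 3 called members per class and direction with the largest change, and further pathway genes are the most abundant of those called, besides cdkn1a, cdkn1ba and ccng1; 1 gene of this rule is not reported here. Members outside these are named with their fold change only, and a few pathway and marker genes beside the results they touch.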

Additional observations from a re-analysis of the deposited data

Results flagged for a closer look

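Among 41 values looked at for a library standing apart, all of them promoter values in the 4 adult cryoinjury ATAC-seq libraries, 3 had a gap to the other libraries above Dixon's 95% critical value, where chance alone flags some. At the promoter of mcm7 cryoinjury 1 was lowest, with 11.5 CPM, while the other 3 libraries had 24.1 to 25.7 CPM. At the promoter of cdc6 cryoinjury 4 was lowest, with 24.9 CPM, while the others had 35.3 to 35.8 CPM. At the promoter of cdt1 cryoinjury 3 was highest, with 17.4 CPM, while the others had 8.85 to 10.03 CPM. A different library stood apart at each of the 3 promoters.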

How the results depend on the processing

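Among the recomputed RNA log2 fold changes of named genes, 752 had the same direction and side of the threshold, 62 lost and 29 gained a call and 2 reversed. Promoters were recomputed as counts of calls only. The 2 were those of plk1 and uhrf1 after sham surgery over larval epicardium, which were -8.04 (adjusted p = 0.00978) and -4.09 (adjusted p = 0.0204) by edgeR without sham 4, leaving sham 12, in which plk1 had no count and uhrf1 0.635 CPM; with 1 library left out in turn they ranged from -8.04 to 1.54 and from -4.09 to 1.23. Among the recomputed counts of calls, 261 stayed within 1.5 times and 55 did not. For cryoinjury over sham surgery, mitosis genes called higher numbered 7 with DESeq2 size factors, total count, DESeq2 and no filter, and 0 with only the compared groups, a fit with fewer libraries; replication genes called higher numbered 1 with DESeq2 size factors, total count and a trend on abundance taken out, and 2 with DESeq2 and no filter. For cryoinjury over larval epicardium, replication genes called higher numbered 3 with DESeq2 size factors, total count, trend taken out, DESeq2 and only the compared groups; the last also gave 0 replication genes lower, 3 mitosis genes higher and 1 lower. For sham surgery over larval epicardium, replication genes called lower numbered 2 with the trend taken out and 0 with only the compared groups. At promoters, sham surgery over larval epicardium gave 2 higher with DESeq2 size factors and with halved counts, cryoinjury over larval epicardium gave 5 higher with total count and 6 once the trend was taken out, and tbx18 gave 3 lower with halved counts and 7 with only the compared groups. The cause of these changes was not tested. Apart from the fit of the adult libraries alone, calls over all genes or peaks are not given for these alternatives.

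With 1 library left out, larval epicardium over non-epicardium gave 12 to 16 replication and 13 to 14 mitosis genes lower. Cryoinjury over sham surgery gave 0 to 2 replication and 2 to 15 mitosis genes higher. Cryoinjury over larval epicardium gave 3 to 5 replication genes higher and 0 to 1 lower, and 3 to 5 mitosis genes higher and 1 to 3 lower. Sham surgery over larval epicardium gave 0 to 1 replication genes higher and 1 to 3 lower, and 0 to 1 mitosis genes higher and 5 to 14 lower. At promoters, tcf21 gave 2 to 16 lower, tbx18 gave 1 lower, cryoinjury over larval epicardium gave 1 to 2 higher and 1 lower, and sham surgery over larval epicardium gave 0 to 1 higher. A group left with 1 library was assumed to vary like the others.

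With the replicate block in the ATAC-seq fits, 15 peaks were called lower with tcf21 and 1 with tbx18, 0 between cryoinjury and sham surgery, 1 higher and 1 lower for cryoinjury over larval epicardium, and 3 higher for sham surgery over larval epicardium. The deviations of same-numbered larval libraries from their group means correlated by 0.0511 with tcf21 and 0.121 with tbx18; the labels do not say what a number marks, and 2 pairs cannot show whether it does. In the larval RNA columns, whose numbers differ from the titles, same-numbered libraries correlated by 0.0449, -0.211 and -0.102, and not every library correlated best with its own number. A replicate block on these numbers, chosen after seeing the data, called 16 replication and 15 mitosis genes lower, and ccnd2a lost its call (1.29, adjusted p = 0.0904 by edgeR). No paired analysis was possible for the adult RNA because its libraries share only the number 4 with the larval columns. In the sham libraries 3 counts equalled 0.635 to 0.717 CPM, which limits what can be seen for the mitosis genes at 0.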
